A study of Mus musculus with 4 samples.

Results

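The respiratory chain subunits encoded in the nucleus were described here in activated CD8+ T cells recovered from mice with and without a microbiota. The members are the rows of the deposited count table whose symbols follow the usual name patterns of these subunits (Nduf with a letter and a number, Sdh, Uqcr, Cyc1, Cycs, Cox and Atp5), with pseudogene names left out. Subunits with other names, among them Ndufab1, are not members. They are 86 of 24062 genes: 35 of complex I, 4 of complex II, 9 of complex III, 1 for cytochrome c, 20 of complex IV and 17 of complex V. Ndufa4 and its paralogue Ndufa4l2 were placed with complex IV, since the Ndufa4 protein is carried there. The mitochondrially encoded subunits were not analysed here.

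The cells were gBT-I T cells, whose transgenic receptor recognises a herpes simplex glycoprotein B peptide. Splenocytes of SPF donor mice carrying that transgene were activated with the peptide and LPS in culture, given the interleukin named in the labels as IL-1 on days 2 and 3, and injected into the vein of recipients on day 4. Recipients were C57BL/6 mice, kept as specific pathogen free (SPF) mice or without microbes as germ free (GF) mice. Both groups therefore received cells of SPF donors that had been activated in culture. The cells were taken from the spleen, enriched and sorted 7 days after transfer, with 2 libraries per group, and the labels used here give no ages and do not say whether each library is 1 mouse or a pool.

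The respiratory chain passes electrons from NADH (complex I) or succinate (complex II) through ubiquinone to complex III, from there through cytochrome c to complex IV and oxygen, and complexes I, III and IV pump protons. Complex V, the ATP synthase, makes ATP as these protons flow back. In CD8+ T cells, resting and memory cells are known for their reliance on this pathway, and activated cells raise glycolysis beside it.

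Library totals ran from 11544960 counts in SPF replicate 1 to 14431533 in GF replicate 2, and levels are given as CPM, the count relative to the TMM-scaled library total. A count of 0 allows 3 counts at most, which is 0.205 to 0.262 CPM by library, for counting error only. All 8 CD8 T cell markers on the list were detected, with a summed level of 5483 to 7261 CPM and its highest value in SPF replicate 1. The 8 B cell markers summed to 93.1 and 107.5 CPM in the libraries numbered 1 (SPF, GF) and to 25.9 and 29.3 CPM in those numbered 2. NK cell markers summed to 73.9 and 51.1 CPM in SPF and to 42.6 and 38.1 CPM in GF, with Ncr1 at most at 0.262 CPM and both Klra genes on the list at 0. All 3 that were tested (Klrb1c, Tyrobp and Fcer1g) were lower in each GF library than in each SPF library, and their part in the members' differences between groups was not tested. Neutrophil, erythroid, platelet and macrophage markers summed to at most 10.8 CPM in any library. The dendritic cell list reached 401 to 1018 CPM, almost all of it Itgax, an integrin gene that activated T cells also use. On these lists, the myeloid genes Mpo and Elane, the adult haemoglobin genes and Pf4 were at 0 in all 4 libraries. Others on the same lists had counts, among them S100a8 at up to 0.436 CPM, Alas2 at up to 1.40 CPM and Itga2b at up to 4.43 CPM. Whether reads of near-identical haemoglobin copies were lost in counting was not tested. These libraries are of sorted cells in bulk, where fewer cells of a type and less RNA per cell cannot be told apart.

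Of the 86 members, 79 passed the filter on low counts and were tested. Of the other 7, 6 are isoforms or paralogues known for use in other tissues or, for Ndufa4l2, in low oxygen. Cox4i2 (lung), Cox7b2 and Cox8c (testis) had 0 counts in every library, Cox8b (heart and muscle) had 1 count in SPF replicate 2, and Ndufa4l2 had 1 count in GF replicate 2. Cox6a2, the heart and muscle form of Cox6a, had 3 and 1 counts in the SPF libraries and 1 and 4 in the GF libraries. The testis form Cox6b2, with 15 and 8 counts in SPF and 15 and 7 in GF, and the muscle form Cox7a1, with 13 and 18 in SPF and 29 and 16 in GF, were just above the filter. Ndufs5, an accessory subunit of complex I with no known replacement, was listed at 0 in all libraries while every other complex I member had at least 168 counts in each. Reads of near-identical copies may be lost in counting, and whether this holds for Ndufs5 was not tested. The widely expressed forms of the same subunits were abundant: Cox4i1 had at least 2394 counts in every library, Cox6a1 at least 1208 and Cox8a at least 1761.

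Levels were compared between genes as RPKM (CPM per 1000 nt of the gene's median coding transcript). Complex IV members had the highest median of the groups in SPF replicate 1, at 307.9 RPKM, followed by complex V with 240.03 RPKM, complex III with 144.8, complex I with 114.4 and complex II with 105.2 RPKM. In the other 3 libraries complex V had the highest median, at 148.9 in SPF replicate 2, 172.7 in GF replicate 1 and 146.04 RPKM in GF replicate 2, ahead of complex IV with 134.3, 171.8 and 122.8 RPKM, a gap that nearly closed in GF replicate 1. Complex I medians were 57.1, 69.5 and 50.9 RPKM in these libraries, the lowest of the 5 complexes.

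Within complexes the levels spread widely. Uqcrh, the hinge protein of complex III, had the highest level of all members, at 718.8 and 374.5 RPKM in SPF replicates 1 and 2 and 449.5 and 323.6 RPKM in GF replicates 1 and 2. In each library it stood far above Uqcr10, the next member of that complex by mean level, with 200.9, 100.2, 127.9 and 91.8 RPKM in the same order. Cyc1 (cytochrome c1, the heme subunit that hands electrons to cytochrome c) was the lowest of complex III, with 83.8, 61.5, 69.7 and 54.8 RPKM. In complex V, the epsilon subunit gene Atp5e had 642.6, 271.3, 332.4 and 245.5 RPKM and the stator subunit gene Atp5h 577.2, 283.4, 312.4 and 231.9 RPKM. Atp5s, the coupling factor B gene that the symbol rule places with complex V, was the lowest there at 5.55, 3.34, 3.06 and 2.60 RPKM.

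In complex IV, Cox7a2l and Cox8a led with mean levels of 342.8 and 331.9 RPKM over the 4 libraries. Cox7a2l is placed there by the symbol rule and is not a proven subunit of complex IV. Cox6b2 was lowest at 1.95 RPKM. In complex I the accessory subunit genes Ndufa6 and Ndufa3 led with means of 254.7 and 191.2 RPKM, and Ndufb2 was lowest at 10.6 RPKM. Ndufb2 has 2 annotated coding transcripts of 455 and 4371 nt, so its level per length depends on which of them the cells used, which was not measured. Complex II was the most even: Sdha, the flavoprotein that oxidises succinate, had a mean of 95.8 RPKM, and the membrane anchor genes Sdhd and Sdhc 83.8 and 41.02 RPKM.

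**Figure D1:**
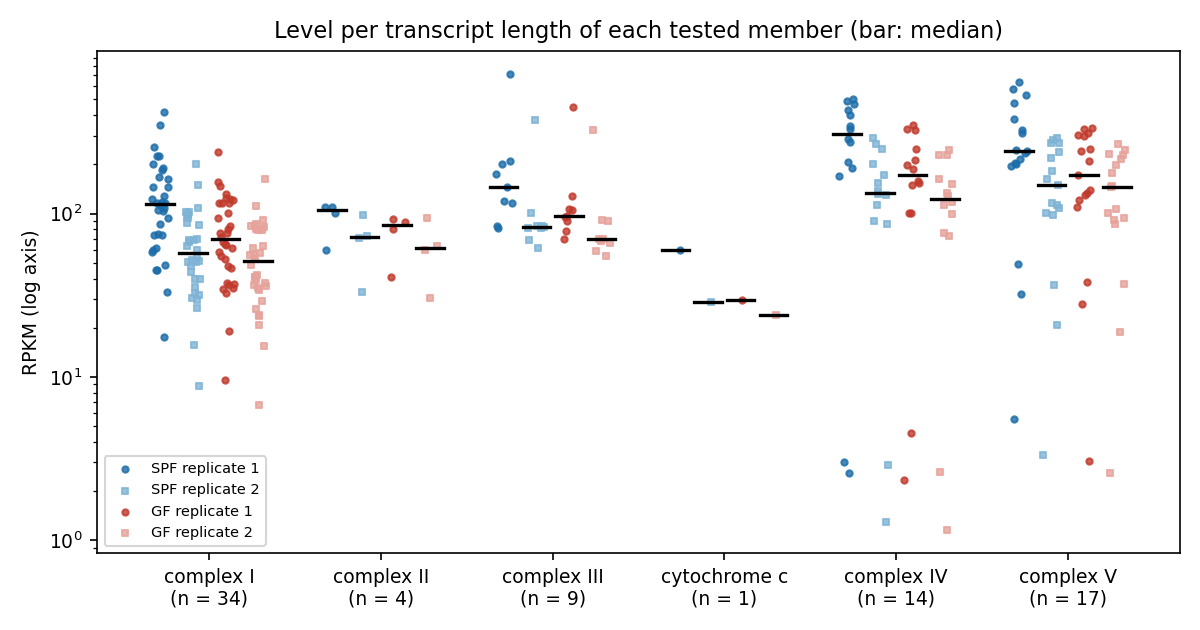
Level of each tested member per transcript length (RPKM, log axis) by complex, with 1 point per member and library and a bar at the median of each library. SPF replicate 1 has the highest median in each group and GF replicate 2 the lowest, and complexes IV and V lie above complexes I and II in each library.

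Respiratory chain transcripts as a whole took 1.26% and 0.753% of counts in the SPF libraries (replicate 1, then 2) and 0.900% and 0.644% in the GF libraries. Their summed levels were 12737 and 7456 CPM in SPF and 8735 and 6648 CPM in GF, so the GF libraries lay on either side of SPF replicate 2. Summed over tested members, SPF libraries had a mean of 10096 ± 3735 CPM (SD, n = 2) and GF libraries one of 7691 ± 1476 CPM (SD, n = 2), so the means differed by less than the SD within SPF. This order was shared by nearly all members. In 71 of 79 (89.9%) the value was highest in SPF replicate 1, then in GF replicate 1, then in SPF replicate 2 and lowest in GF replicate 2, an order found in 17.7% of all tested genes. The sum in SPF replicate 1 was 1.92 times that in GF replicate 2 over all tested members. By complex this ratio was 2.47 for cytochrome c, 2.28 for complex IV, 2.13 for complex I, 1.78 for complex III, 1.73 for complex V and 1.40 for complex II. In such sums abundant members weigh most. In complex V the ratio was 1.13 for Atp5a1 and 1.22 for Atp5b, but 2.62 for Atp5e.

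The 8 members with another order were Ndufs1 and Ndufa10 of complex I, Sdha, the complex III core proteins Uqcrc1 and Uqcrc2, the scarce muscle form Cox7a1, and Atp5s and Atp5sl. Ndufs1, the largest core subunit of complex I and a carrier of iron-sulfur clusters, had 86.7 and 93.6 CPM in SPF replicates 1 and 2 and 98.99 and 91.5 CPM in GF replicates 1 and 2. The alpha and beta subunits of the ATP synthase followed the common order over a narrow range: Atp5a1 (alpha) had 627.3 and 562.99 CPM in SPF and 624.4 and 553.01 CPM in GF. Atp5b (beta) had 624.003 and 558.7 CPM in SPF and 578.6 and 509.8 CPM in GF. Atp5e, a small subunit of the central stalk that turns beneath them, had 270.5 and 114.2 CPM in SPF and 139.9 and 103.3 CPM in GF, a far wider range.

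**Figure D2:**
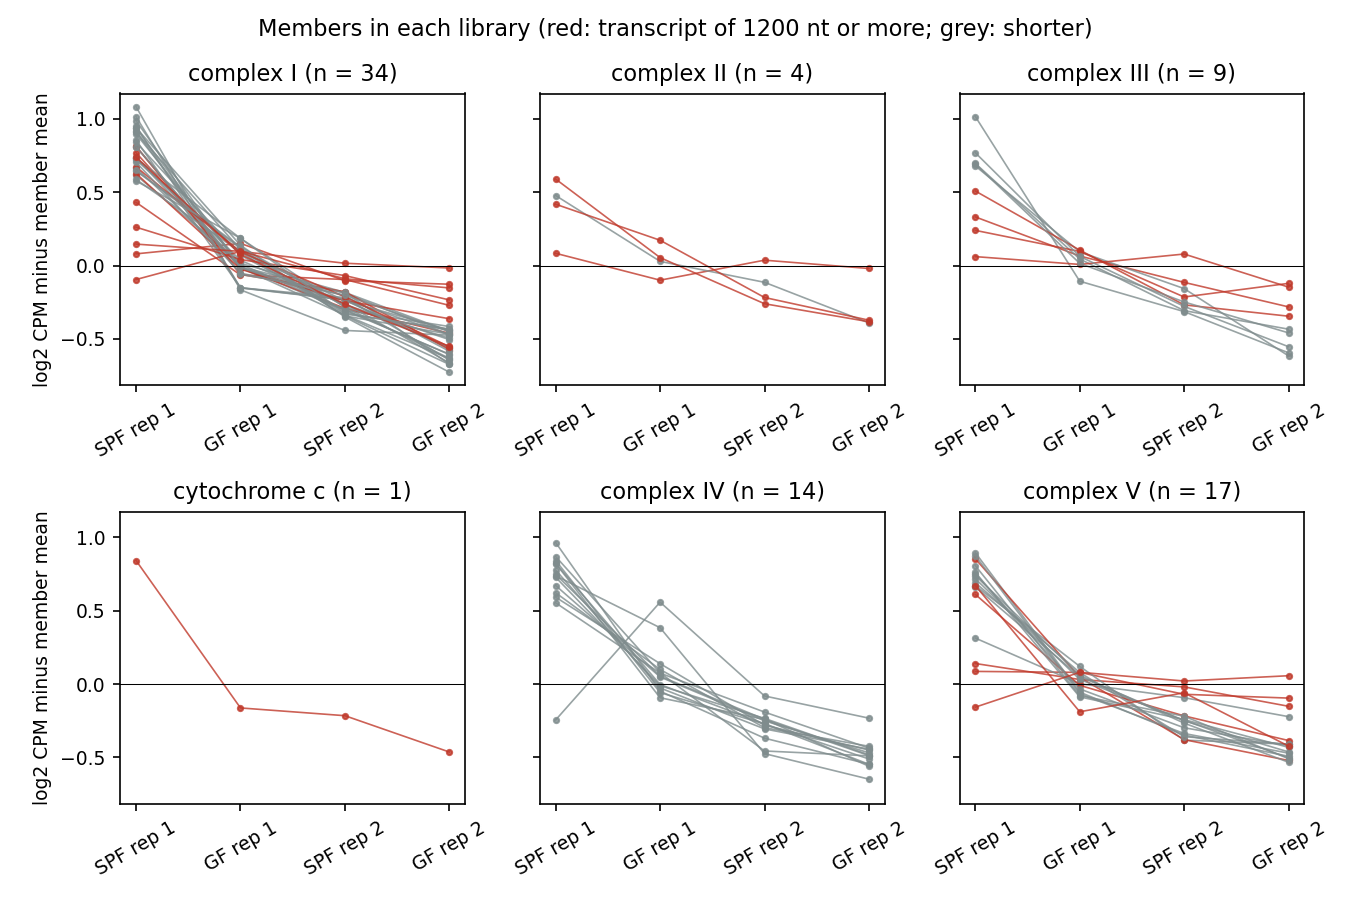
Each line is 1 tested member, plotted as log2 CPM minus its mean over the 4 libraries (y axis) in each library (x axis, ordered by the summed level), with 1 panel per complex. Most lines run downward from SPF replicate 1 to GF replicate 2, and the flattest, among them Sdha, Ndufs1 and Atp5a1, are members with transcripts of 1200 nt or more (red; shorter in grey).

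Between recipients, no member passed in edgeR (quasi-likelihood F test, Benjamini-Hochberg over all 11271 tested genes), with 0 higher (0% of all genes) and 0 lower in GF (0% of all genes). The smallest adjusted p among members was 0.855. At an unadjusted p under 0.05 there were 0 members, against 3.22% of all tested genes. DESeq2 and the edgeR exact test each called 9 genes (0.0799%) and limma-voom 0, and none of the 3 tools called a member. Missing the threshold does not show equal levels, and for a single value the smallest p of an exact permutation test with this design is 0.33. The labels do not tie libraries to separate animals, so p reflects spread among libraries that may be technical.

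The fitted direction was lower in GF for 75 of 79 members (94.9%), where 50.3% of all tested genes were lower. The median log2 fold change of the members was -0.52, against -0.00 over all tested genes. The GF values were below each SPF value for 3 members, Sdha, Uqcrc2 and Atp5s (3.80% of members against 16.4% of all genes), and above them for 1, Atp5sl (1.27% against 16.8%). The direction depended on which libraries were set side by side. GF replicate 1 was below SPF replicate 1 for 75 of 79 members (49.6% of all genes) and GF replicate 2 below SPF replicate 2 for 77 (50.5%). GF replicate 2 was below SPF replicate 1 for 76 (50.4%), but GF replicate 1 was below SPF replicate 2 for 3 (49.3%). Median log2 differences over members were -0.67 for GF replicate 1 minus SPF replicate 1 and -1.17 for GF replicate 2 minus SPF replicate 1. Against SPF replicate 2 they were -0.21 for GF replicate 2 and 0.27, in the opposite direction, for GF replicate 1. Without SPF replicate 1 the median fold change was 0.06, with 54 members higher and 25 lower in GF, and without SPF replicate 2 it was -0.91, with 47 members called lower against 4.7% of all genes tested in that fit.

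**Figure D3:**
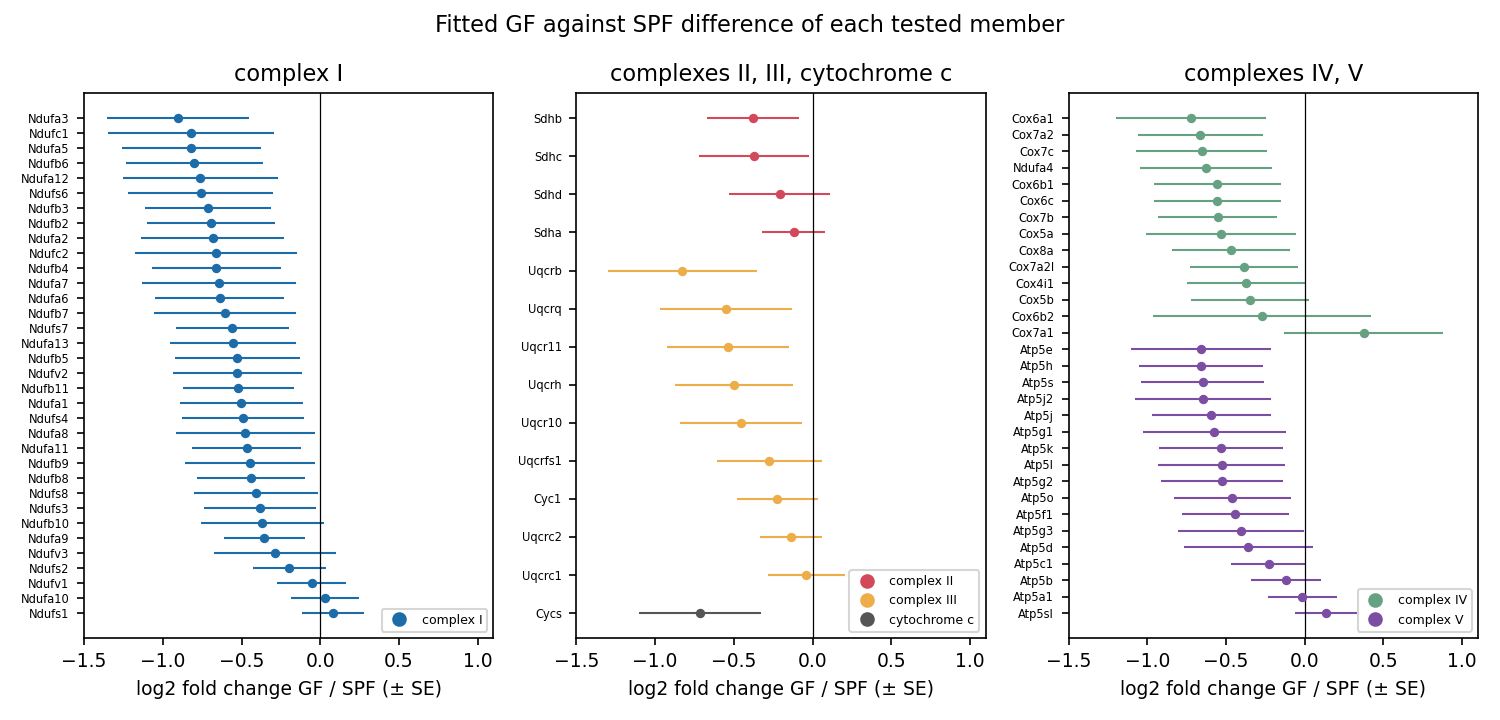
Fitted log2 fold change of GF against SPF for each of the 79 tested members (x axis, point with SE as bar), grouped by complex. All but 4 points (Ndufs1, Ndufa10, Cox7a1 and Atp5sl) lie below 0, and none passed the test.

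Complex I holds a peripheral arm that oxidises NADH and a membrane arm that pumps protons. Over its 34 tested members the median was -0.53 (log2 fold change), 32 being lower and 2 higher in GF, and none was called. The 7 core subunits, which carry the flavin and iron-sulfur clusters, had a median of -0.38, and the 27 accessory subunits -0.60. Ndufa3, a small accessory subunit (chromosome 7, 3617373 to 3620327, plus strand, 4 exons), had 151.4 and 64.4 CPM in SPF and 67.4 and 47.9 CPM in GF. SPF replicate 1 was the 1 high library, and the groups overlapped through SPF replicate 2 and GF replicate 1. Its log2 fold change was -0.90 (SE 0.45, unadjusted p = 0.098, edgeR), the smallest p of all members.

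Ndufa5, an accessory subunit of the matrix arm (chromosome 6, 24518666 to 24528013, minus strand), had 44.2 and 19.4 CPM in SPF and 20.5 and 15.4 CPM in GF. Again the groups overlapped, and the log2 fold change was -0.82 (SE 0.44, unadjusted p = 0.12, edgeR). Ndufs1 and Ndufv1, the core subunit that binds NADH, sit in the same arm, yet their log2 fold changes were near 0, at 0.08 (SE 0.20) for the former and -0.06 (SE 0.22) for the latter.

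Complex II is both a chain complex and an enzyme of the citrate cycle. Its median log2 fold change was the smallest in size of the complexes, at -0.29, with 4 of 4 lower. Once each library's trend on transcript length was removed, this median was -0.13, larger in size than for complexes III, IV and V. Sdha (chromosome 13, 74322254 to 74350280, minus strand, 15 exons) had 293.9 and 284.5 CPM in SPF and 258.9 and 273.6 CPM in GF. The groups did not overlap, but the gap between them was small, and the log2 fold change was -0.12 (SE 0.20, unadjusted p = 0.57, edgeR). Sdhb, the iron-sulfur subunit (chromosome 4, 140961203 to 140979193, plus strand), had 124.6 and 82.7 CPM in SPF and 91.3 and 68.2 CPM in GF. Its log2 fold change was -0.38 (SE 0.29, unadjusted p = 0.25, edgeR). Sdhc (chromosome 1, 171127165 to 171150603, minus strand) had 118.7 and 65.9 CPM in SPF and 81.9 and 60.5 CPM in GF, with a log2 fold change of -0.37 (SE 0.35, unadjusted p = 0.33, edgeR). Sdhb and Sdhc followed the common order of the libraries, whereas Sdha did not.

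Complex III had a median log2 fold change of -0.45, with 9 of 9 lower. Its small subunits had the larger fitted values. Uqcrb, which lies at a ubiquinone site (chromosome 13, 66900617 to 66905378, minus strand), had 111.7 and 44.4 CPM in SPF and 51.3 and 36.5 CPM in GF, a log2 fold change of -0.83 (SE 0.47, unadjusted p = 0.14, edgeR). Uqcr11 (chromosome 10, 80402997 to 80406830, minus strand) had 64.4 and 36.1 CPM in SPF and 42.9 and 26.2 CPM in GF, a log2 fold change of -0.54 (SE 0.39, unadjusted p = 0.22, edgeR). In both, GF replicate 1 lay above SPF replicate 2. The core protein gene Uqcrc2 (chromosome 7, 120635176 to 120659524, plus strand, 14 exons) had 153.6 and 155.5 CPM in SPF and 148.1 and 133.03 CPM in GF. Both GF values lay below both SPF values, and the log2 fold change was -0.14 (SE 0.20, unadjusted p = 0.51, edgeR).

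Cytochrome c, the mobile carrier that also triggers the apoptosome once it leaves the mitochondrion, is encoded by Cycs (chromosome 6, 50562563 to 50566538, minus strand). It had 185.8 and 89.2 CPM in SPF and 92.6 and 75.2 CPM in GF. SPF replicate 1 was high and the other libraries lay close together. The log2 fold change was -0.71 (SE 0.39, unadjusted p = 0.12, edgeR).

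Complex IV had a median log2 fold change of -0.54, with 13 of 14 lower. Cox7a2, the widely expressed form of subunit VIIa (chromosome 9, 79755361 to 79759878, minus strand), had 124.7 and 59.7 CPM in SPF and 66.1 and 50.3 CPM in GF, a log2 fold change of -0.66 (SE 0.40, unadjusted p = 0.15, edgeR). Cox7c (chromosome 13, 86044816 to 86046904, minus strand) had 154.5 and 71.4 CPM in SPF and 82.8 and 60.5 CPM in GF, a log2 fold change of -0.66 (SE 0.41, unadjusted p = 0.17, edgeR). In both genes SPF replicate 1 was high and the other libraries overlapped between groups. The 1 member with a higher fitted value was Cox7a1, at 1.13 and 1.27 CPM in SPF and 1.98 and 1.14 CPM in GF, which was high in 1 GF library only (log2 fold change 0.37, SE 0.51).

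Complex V had a median log2 fold change of -0.53, with 16 of 17 lower. Atp5h, the stator subunit d (chromosome 11, 115415689 to 115419962, minus strand), had 370.6 and 181.9 CPM in SPF and 200.6 and 148.9 CPM in GF, a log2 fold change of -0.66 (SE 0.39, unadjusted p = 0.15, edgeR). The groups overlapped, with GF replicate 1 above SPF replicate 2. The 3 genes for subunit c, which share the protein of the proton-driven ring, had close values, with a log2 fold change of -0.57 (SE 0.46) for Atp5g1, -0.53 (SE 0.39) for Atp5g2 and -0.40 (SE 0.40) for Atp5g3. Atp5s (chromosome 12, 69724950 to 69744660, plus strand) had 8.56 and 5.15 CPM in SPF and 4.71 and 4.01 CPM in GF. Its GF values lay below both SPF values by little, and the log2 fold change was -0.65 (SE 0.39, unadjusted p = 0.16, edgeR). Atp5sl, now named Dmac2 and known as a complex I assembly factor (chromosome 7, 25619414 to 25625551, plus strand), had 61.9 and 70.04 CPM in SPF and 72.98 and 71.8 CPM in GF, a log2 fold change of 0.13 (SE 0.20, unadjusted p = 0.53, edgeR). Of all members it was the 1 with both GF values above both SPF values.

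Members also differed by transcript length, which runs from 321.5 nt (Atp5k) and 382 nt (Ndufa6) to 2900 nt (Sdha) and 3123 nt (Cycs). The 26 tested members under 600 nt had a median log2 fold change of -0.59, the 29 from 600 to 1200 nt -0.52, and the 24 of 1200 nt or more -0.25. All tested genes in these classes had medians of -0.30 (300 genes), -0.34 (1243 genes) and 0.04 (9649 genes). Below 0 in the same order of classes were 25 of 26, 29 of 29 and 21 of 24 members, against 66.7%, 80.5% and 45.8% of all genes. Within complex I the medians by class were -0.67, -0.52 and -0.40, within complex V -0.53, -0.46 and -0.28, and complex III had -0.54 for 5 members under 600 nt and -0.18 for 4 of 1200 nt or more. Of the 13 members with a fold change within 0.25 of 0, 12 had transcripts of 1200 nt or more. Across the 79 members, which share the 4 libraries and are not independent, Spearman's rho of the fold change with length was 0.44, and across 11192 genes 0.43.

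The same gradient ran between libraries of 1 group. Spearman's rho with length for replicate 2 minus 1 was 0.55 over members in SPF and 0.50 in GF, and 0.59 and 0.52 over all genes. With each library's trend on length removed, the median log2 fold change of the members was -0.10, with 62 lower (78.5% of members against 49.7% of all genes) and none called. Of the 26 members under 600 nt 22 stayed below 0, with a median of -0.10 against 0.06 for all genes of that class, and Ndufa3 and Ndufa5 had values of -0.36 and -0.33. By complex the median was -0.16 for I, -0.13 for II, -0.04 for III, -0.08 for IV and -0.08 for V.

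**Figure D4:**
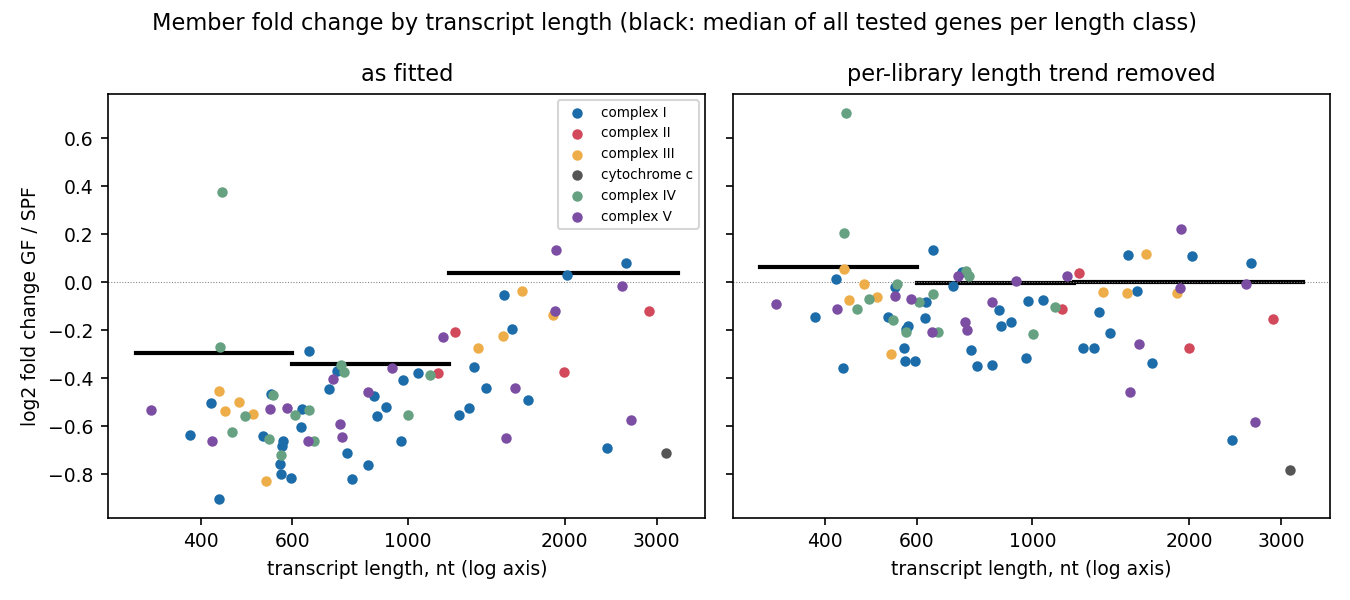
Fitted log2 fold change of GF against SPF (y axis) by transcript length in nt (x axis, log axis) for the 79 tested members, as fitted (left) and with the length trend of each library removed (right); black bars are medians of all tested genes in 3 length classes. Members under 600 nt have a median of -0.59 on the left and -0.10 on the right, where 22 of 26 stay below 0, and Cycs, Atp5g1 and Ndufb2 stay below -0.5 on both sides.

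With the length trend removed, 4 members lay beyond 0.5 on the log2 scale. They were Cycs (-0.78), Ndufb2 (-0.66), Atp5g1 (-0.58) and, upward, the scarce Cox7a1 (0.71). Cycs has 1 annotated coding transcript of 3123 nt and is the longest member in annotation, while its fitted value was as low as those of short members. Atp5g1 has 4 annotated coding transcripts from 596 to 4715 nt. Which transcript was used was not measured, so for Ndufb2 and Atp5g1 the length that enters the correction is uncertain. For Cycs, too, the length is that of the annotation, and the length present in these cells was not measured.

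The libraries numbered 2 were lower than those numbered 1 for most members. In a fit of group plus replicate number, 63 of 79 members passed downward and 0 upward (edgeR quasi-likelihood test, Benjamini-Hochberg), against 13.7% and 14.8% of all tested genes. The median log2 difference was -0.74, with -0.99 in SPF and -0.49 in GF, and members ranged from -1.11 to 0.08. The 63 were 29 of complex I, 3 of complex II, 6 of complex III, Cycs, 12 of complex IV and 12 of complex V. With the length trend removed, 6 members (7.59%) passed, all downward, against the 4.97% of all genes that passed downward. B cell markers were also lower in the libraries numbered 2, by the values given above, and their part in the members' difference was not tested. The labels give no meaning to these numbers beyond naming the libraries.

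Promoters were examined because the members moved together across libraries. RefSeq (GRCm38.p6) gave a window from 250 bases before to 50 bases after the most upstream start for 70 of the 86 members. On both strands, the windows were searched for the motif of NRF1, a regulator of nuclear genes for mitochondria (10 letters with 1 free base), CCGGAAG (ETS factors, among them GABP) and AAGATGGC (YY1). The NRF1 letters were found in 16 of 70 member windows (22.9%), against 11.4% of windows of tested genes and 4.82% of all 27025 windows. The ETS letters were in 15 (21.4%, against 20.1% and 9.14%) and the YY1 letters in 10 (14.3%, against 5.22% and 2.87%). These are letter matches and not measured binding.

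Upstream sequences are shown for the 3 members described in full above whose window held a match upstream of the annotated gene: Atp5h and Uqcr11, which followed the common order of the libraries, and Sdha, which did not. All run 5′ to 3′ on the minus strand, and capitals mark NRF1 letters in Atp5h and Sdha and ETS letters in Uqcr11, with no overlap between motifs. The searched window of Atp5h also held ETS letters, outside the stretch shown. The stretches shown are chr11:115419963-115420169, chr13:74350281-74350490 and chr10:80406831-80407071 in the order of the lines.
Atp5h: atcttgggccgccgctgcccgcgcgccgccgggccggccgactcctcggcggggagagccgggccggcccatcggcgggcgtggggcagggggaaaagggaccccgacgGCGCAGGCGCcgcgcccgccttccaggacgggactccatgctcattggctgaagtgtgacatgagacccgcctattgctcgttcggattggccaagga
Sdha: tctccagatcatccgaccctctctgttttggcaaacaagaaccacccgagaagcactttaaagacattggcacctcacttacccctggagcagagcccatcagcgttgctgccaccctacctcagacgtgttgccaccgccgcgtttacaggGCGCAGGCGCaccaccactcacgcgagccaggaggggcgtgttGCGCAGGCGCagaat
Uqcr11: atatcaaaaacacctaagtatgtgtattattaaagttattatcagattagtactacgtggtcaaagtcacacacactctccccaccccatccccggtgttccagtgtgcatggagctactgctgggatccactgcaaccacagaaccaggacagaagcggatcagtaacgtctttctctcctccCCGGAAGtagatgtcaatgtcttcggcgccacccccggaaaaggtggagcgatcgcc
Distances are counted to each gene's RefSeq start, and the lines shown stop short of it, at the edge of the annotated gene. The NRF1 match of Atp5h begins 141 bases before that start and those of Sdha 98 and 55 bases before it. For Uqcr11 the ETS match begins 66 bases before its start. Atp5h had a wide range between libraries and Sdha a narrow one. Whether such letters go with the range of a member was not tested.

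Assembly factors, which build the complexes, were read from lists of the same pathway, of which 2 also hold subunits with other names (Ndufab1 for complex I; Usmg5 and 2010107E04Rik for complex V). Of 15 complex I assembly genes 14 had a lower fitted value in GF (median -0.39 on the log2 scale), and in 6 the GF values were below each SPF value (16.4% over all genes). Without Ndufab1 these counts were 13 of 14 and 5. Ndufaf4, an assembly factor of the early complex I intermediates, had 53.9 and 38.2 CPM in SPF and 28.4 and 25.8 CPM in GF. Its groups did not overlap, and the log2 fold change was -0.76 (SE 0.26, unadjusted p = 0.029, adjusted p = 0.855, edgeR). Timmdc1, which builds the membrane arm, had 32.4 and 22.7 CPM in SPF and 16.6 and 18.02 CPM in GF, again without overlap (log2 fold change -0.67, SE 0.28, unadjusted p = 0.058, edgeR). With the length trend removed the values were -0.88 and -0.48. In both genes GF replicate 1 lay below SPF replicate 2, the reverse of the common order of the subunits.

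Of 8 tested complex II and III assembly genes 7 were lower, and in 4 the GF values were below each SPF value (16.4% over all genes), among them Uqcc2, needed for cytochrome b, with 54.6 and 26.0 CPM in SPF and 25.6 and 19.5 CPM in GF. Of 21 tested complex IV assembly genes 17 were lower and 4 higher, with a median of -0.36, and the GF values were below each SPF value in 3 and above in 1 (16.4% and 16.8% over all genes). The copper chaperone gene Cox17 had 89.8 and 38.8 CPM in SPF and 37.3 and 32.3 CPM in GF, and Coa3, an assembly factor of the Cox1 subunit, 74.9 and 31.98 CPM in SPF and 33.4 and 23.5 CPM in GF. The 5 tested genes on the complex V list had a median of -0.32, all lower, and the 3 that are no subunits one of -0.30 (0.10 with the length trend removed). With the length trend removed, the medians of the lists were -0.18 for complex I assembly, -0.12 for complexes II and III, -0.12 for complex IV and -0.18 for complex V. None of these genes passed the test.

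Carriers and regulators were read in the same way. The 7 tested genes of ADP exchange, phosphate import and uncoupling had a median of -0.06 (0.04 with the length trend removed), with 5 lower and 2 higher. Ucp2, an inner membrane carrier of the uncoupling protein family, had 519.4 and 380.6 CPM in SPF and 609.01 and 522.5 CPM in GF, a log2 fold change of 0.33 (SE 0.26, unadjusted p = 0.25, edgeR). The 14 tested regulators of mitochondrial biogenesis had a median of -0.09 (-0.12 with the length trend removed), with 9 lower and 5 higher, and the factors whose motifs were searched had values of 0.13 (SE 0.24) for Nrf1, -0.04 (SE 0.19) for Gabpa and -0.22 (SE 0.22) for Yy1 on the log2 scale. Ppargc1a, the coactivator PGC-1alpha, was listed at 0 in all 4 libraries, while its relative Ppargc1b had 7.25 and 13.8 CPM in SPF and 12.2 and 17.8 CPM in GF. Tfam, which packages mitochondrial DNA, had 99.3 and 68.4 CPM in SPF and 70.6 and 58.9 CPM in GF.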

How the data were processed

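RNA from 4 libraries of sorted gBT-I T cells was sequenced, 2 each from SPF and GF recipients. The authors deposited raw counts, a whole number for every gene and library. The submitters' processing notes name build mm10 and, with no version or role, CASAVA, TopHat, Picard, featureCounts, Subread and edgeR. The annotation used for counting was not stated. Per the labels' protocols, libraries were made with an Illumina TruSeq RNA kit from 1 µg of total RNA. Counting by strand is not stated, and 26 members share exon bases with a gene on the opposite strand.

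Counts were tested with edgeR 4.0.16 (R 4.3.3) on the whole table: TMM scaling, filterByExpr (11271 genes kept), quasi-likelihood F test, two-sided, Benjamini-Hochberg, threshold 0.05. Standard errors are the fold change over the square root of F. Library medians and pairwise differences use log2 CPM with a prior count of 2. Alternatives used DESeq2 1.42.0 and limma 3.58.1. Transcript lengths are medians over basic coding transcripts of GENCODE M21 (GRCm38, the same assembly as mm10), and the length trend was a loess fit (span 0.3) per library. The fits were also run on simulated counts, with outcomes not given here. Those counts were drawn at a dispersion (spread between libraries) of 0.017, below the 0.076 of the group-only fit. Members and lists were chosen with earlier results of these data known. Fully described members are the 2 of each complex with the smallest p and all whose groups did not overlap. Figures were drawn with matplotlib 3.10.9.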

Additional observations from a re-analysis of the deposited data

How the results depend on the processing

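No member was called in GF against SPF under RLE, upper-quartile or plain scaling, the 3 other filters, the robust fit, DESeq2, limma-voom, the exact test, the looser threshold of 0.1 or either length correction; over all genes DESeq2 and the exact test called 9. Leaving out each library, members called ranged from 0 to 47 and genes from 0 to 1327, both highest without SPF replicate 2, and the median fold change of the members ranged from -0.91 to 0.057, the latter without SPF replicate 1. In these fits a lone library is assumed to vary like the other group's pair. Of 14 fully described members, 2 turned direction without SPF replicate 1: Sdhc, which ranged over the libraries left out from -0.74 to 0.11, and Cox7c, from -1.11 to 0.0067. No other alternative turned the direction of these 14.

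No label says that the replicate numbers pair the libraries, and the number 1 minus 2 differences of the groups correlated across genes with r = 0.71. With the number as a replicate block, 1206 genes were called, 786 higher and 420 lower in GF (3.73%), and 23 members, all lower (29.1%); with the block and the length trend removed, 831 genes were called, 263 of them lower (2.33%), and 2 members, Ndufb2 and Cycs, both lower (2.53%). For the difference by number, removing the length trend reduced the genes called from 3207 to 1320 and the members from 63 to 6, and a threshold of 0.01 gave 1769 genes. With total exon length in place of transcript length, an alternative chosen after seeing the data, the median fold change of the members was -0.20. In that fit 71 members were lower and 8 higher in GF. Spearman's rho of the members' uncorrected fold change with total exon length was 0.33. Length and depth limit what can be said: short scarce members such as Cox6b2 rest on 7 to 15 counts a library.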
